A study of Homo sapiens with 65 samples.

Results

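The 8 genes described here encode the enzymes that write cytosine methylation into DNA, 2 partners of those enzymes and the enzymes that begin its removal. They are the methyltransferases DNMT1, DNMT3A and DNMT3B, the catalytically inactive DNMT3L, the DNMT1 partner UHRF1, and the dioxygenases TET1, TET2 and TET3. They were matched by symbol to the gene identifiers of the count table, and all 8 were found among its 58302 genes. RNA, and not DNA methylation, was measured, so every value below is a transcript level.

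Total RNA came from H9, a human embryonic stem cell line, carrying an mCherry reporter at SOX17 and a GFP reporter at RUNX1C (WT), and from a derivative of that line in which CRISPR editing had deleted the DNA-binding domain of RUNX1 (KO). All groups carry both reporters, and the labels do not state if the KO line is 1 clone. In the mesoderm protocol WT and KO cells grew in STAPEL medium with BMP4, ACTIVIN A, VEGF, SCF and FGF2 to day 4, with SB431542 and CHIR 99021 added from day 2, and then with VEGF, SCF, FGF2 and IGF2 to day 8. Later medium is not stated in the labels. Unsorted cells were taken at day 0, 2 and 4 (4 libraries per genotype and day). At day 7 and 12, CD34-positive cells were sorted on SOX17 and CD43. The day 7 fractions were SOX17-positive CD43-negative (4 WT, 4 KO) and SOX17-negative CD43-negative (4 WT, 3 KO). The day 12 fractions were SOX17-positive CD43-negative (4 WT, 4 KO), SOX17-positive CD43-positive (2 WT), SOX17-negative CD43-positive (3 WT) and, from KO, 1 library of SOX17-negative CD43-negative cells that entered no test. In the endoderm protocol WT cells received Act A, CHIR and PI-103 on day 0 and Act A with DMH-1 afterwards, and were taken unsorted at day 0, 2, 4 and 7 (3 libraries each).

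The 65 libraries held 10366048 to 19081031 counts. Sorted fractions matched their gates at the RNA level only in part. SOX17 was at 63.3 to 95.2 RPKM (reads scaled per gene length and library size) in the 4 WT SOX17-positive libraries of day 7 and still at 13.4 to 30.04 in the 4 SOX17-negative ones. SPN, the gene of CD43, was at 30.6 to 65.7 RPKM in the 5 CD43-positive libraries and at no more than 0.623 in all other sorted libraries. Summed over 10 endothelial marker genes, the CD43-negative sorted libraries of day 7 and 12 held 1408 to 2674 RPKM, the SOX17-positive CD43-positive libraries 1143 to 1191 and the SOX17-negative CD43-positive libraries 54.2 to 138.9. Of the 10 pluripotency markers, none was at 0 in all libraries of a group up to day 4. RUNX1 in the KO fell by 1.54 ± 0.24 on the log2 scale in SOX17-positive cells of day 7 (adjusted p = 0.00514), and did not separate the libraries labelled KO from WT at day 0, 2 or 4 (adjusted p = 1 each). For 8 of these, the KO libraries of day 2 and 4, the title gives KO while the genotype field lacks the deletion, and they were grouped by title. The mesoderm day 0 libraries with replicate number 1 stood apart from the other 3 in both genotypes, as did WT number 3 and KO number 4 at day 4, and the values without them are given where they change a call. Nothing in the sources used here says whether replicates were separate cultures, so p-values measure the spread between libraries.

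DNA methylation in mammals is placed on cytosines next to a guanine. DNMT3A and DNMT3B place it on unmethylated DNA, with DNMT3L as a stimulating partner that has no activity of its own. After each round of replication UHRF1 binds the hemimethylated sites and brings in DNMT1, which copies the mark onto the new strand. TET1, TET2 and TET3 oxidise methylcytosine, which leads to its loss by dilution or by excision repair. Pluripotent cells of the primed kind are known for abundant DNMT3B and TET1, and TET2 and DNMT3A are among the genes most often mutated in clonal blood disorders.

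The genes lie on 6 chromosomes (GRCh38, GENCODE 29): DNMT1 at chr19:10133345-10231286 (minus strand), UHRF1 at chr19:4903080-4962154 (plus), DNMT3A at chr2:25227855-25342590 (minus), TET3 at chr2:73986404-74108176 (plus), DNMT3B at chr20:32762385-32809356 (plus), DNMT3L at chr21:44246339-44262216 (minus), TET1 at chr10:68560656-68694482 (plus) and TET2 at chr4:105145875-105279816 (plus). The RefSeq promoter table (GRCh38.p14) matched 7 of the 8 by symbol, and DNMT3L is named only. The 250 bases before the first RefSeq start site listed are shown for 5 genes. DNMT1 and UHRF1 are the pair that moved together across groups. The other 3 had the widest spans between group means among these 7. DNMT3B (33.8-fold) and TET1 (37.5-fold) were highest at day 0, and TET2 (32-fold) was lowest there. Capitals mark matches to 5 motifs searched on both strands: E2F as TTTNNCGC, the CCAAT box as CCAAT, an ETS site as CCGGAAGT, the octamer as ATGCAAAT and the E-box as CACGTG. No printed matches overlap.
DNMT1 (chr19:10194954-10195203, minus strand): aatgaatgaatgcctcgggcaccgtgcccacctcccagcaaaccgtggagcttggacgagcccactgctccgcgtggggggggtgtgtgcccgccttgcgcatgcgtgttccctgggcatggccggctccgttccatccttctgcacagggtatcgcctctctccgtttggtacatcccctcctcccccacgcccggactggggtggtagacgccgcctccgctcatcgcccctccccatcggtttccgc
UHRF1 (chr19:4909251-4909500, plus strand): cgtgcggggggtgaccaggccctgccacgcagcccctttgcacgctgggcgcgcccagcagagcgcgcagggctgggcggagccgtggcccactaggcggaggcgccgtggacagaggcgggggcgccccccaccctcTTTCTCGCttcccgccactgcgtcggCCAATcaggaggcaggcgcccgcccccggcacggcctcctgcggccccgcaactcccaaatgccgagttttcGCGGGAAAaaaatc
DNMT3B (chr20:32779602-32779851, plus strand): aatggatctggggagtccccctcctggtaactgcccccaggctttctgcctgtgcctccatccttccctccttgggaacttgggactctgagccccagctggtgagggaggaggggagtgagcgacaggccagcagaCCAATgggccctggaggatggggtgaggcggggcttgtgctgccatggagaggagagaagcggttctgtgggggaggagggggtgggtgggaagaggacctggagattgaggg
TET1 (chr10:68560087-68560336, plus strand): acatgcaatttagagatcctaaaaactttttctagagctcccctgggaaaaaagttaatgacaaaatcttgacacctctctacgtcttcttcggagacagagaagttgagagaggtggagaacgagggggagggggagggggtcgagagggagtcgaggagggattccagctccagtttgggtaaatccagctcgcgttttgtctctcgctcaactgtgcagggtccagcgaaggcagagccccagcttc
TET2 (chr4:105145625-105145874, plus strand): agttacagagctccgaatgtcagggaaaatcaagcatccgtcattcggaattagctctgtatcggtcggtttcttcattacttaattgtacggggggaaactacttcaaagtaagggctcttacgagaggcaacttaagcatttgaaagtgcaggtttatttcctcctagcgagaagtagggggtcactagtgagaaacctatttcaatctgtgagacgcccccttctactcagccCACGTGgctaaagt
The UHRF1 window held 2 E2F matches, beginning 112 and 14 bases before the start site, and 1 CCAAT box. E2F letters were in 5.92% of all 35116 windows of this length and CCAAT letters in 32.01%. The DNMT3B window held 1 CCAAT box and 3 CG dinucleotides against a median of 11 over all windows, while the UHRF1 window held 28. The TET2 window held an E-box 14 bases before the start site, letters found in 6.35% of windows. The DNMT1 and TET1 windows held none of the 5 motifs, which says only that these letters are absent from this stretch. The start site lies inside the gene as GENCODE draws it by 36333 bases for DNMT1, 17467 for DNMT3B and 6421 for UHRF1, and upstream of it by 319 bases for TET1, so longer transcripts of the first 3 begin upstream of these windows. The table lists 1 start each for DNMT1 and DNMT3B, and other starts for the rest. Of the other windows, both of TET1 held 2 CCAAT boxes each, 1 of UHRF1 held an E2F match and 2 CCAAT boxes and 1 none, and that of TET2 held none.

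DNMT3B, one of the 2 de novo methyltransferases, was the most abundant of the 8 transcripts in undifferentiated cells and fell at each step to day 4 in both protocols. The WT mesoderm libraries held 619, 516, 678 and 619 RPKM at day 0. At day 2 they held 99.2, 102, 109 and 94.6 RPKM. At day 4 they held 32.2, 36.4, 44.6 and 38.1 RPKM. The 3 days did not overlap. The fitted log2 change was -2.58 ± 0.14 from day 0 to day 2 (edgeR quasi-likelihood test with Benjamini-Hochberg adjustment over all genes, as for every adjusted p here; adjusted p = 3.03e-12), a 5.97-fold fall, and -1.42 ± 0.14 from day 2 to day 4 (adjusted p = 2.25e-08). In the endoderm protocol the libraries held 632, 644 and 665 RPKM at day 0. They held 138, 178 and 182 RPKM at day 2 and 50.2, 53.7 and 52 RPKM at day 4. The fall to day 2, -1.96 ± 0.11, was smaller than in mesoderm, with a difference between the protocols of 0.63 ± 0.16 (adjusted p = 0.00606). To day 4 the difference was 0.37 ± 0.16 and did not pass (adjusted p = 0.0801). It passed without WT mesoderm number 2 of day 0 (adjusted p = 0.0284) or number 3 of day 4 (adjusted p = 0.0137). In endoderm of day 7 the 3 libraries held 62.9, 59.3 and 70.5 RPKM, all above day 4, with a log2 change of 0.31 ± 0.11 that missed the threshold (adjusted p = 0.0532). Without endoderm number 2 of day 7 it passed (adjusted p = 0.0475).

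Between day 0 and day 2 of WT mesoderm 5 of the 8 genes passed the test, 2 higher and 3 lower, where 45.1% of all 21612 tested genes passed. Between day 2 and day 4, 4 of 8 passed (51.4% of all genes). In endoderm 5 of 8 passed to day 2 (55.5%) and 6 of 8 from day 2 to day 4 (42.4%), and none from day 4 to day 7 (21.3%), where 1 had an unadjusted p under 0.05 and DESeq2 called 1. For the difference between protocols 2 of 8 passed at day 2 (29.5%) and 3 of 8 at day 4 (40.4%). The median log2 change of the 8 genes was -0.44 from day 0 to day 2 of WT mesoderm and -0.33 in endoderm, beside medians of -0.00 and 0.02 over all genes tested. Since unsorted cells were measured, fewer cells of a type and less RNA per cell cannot be told apart.

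**Figure D1:**
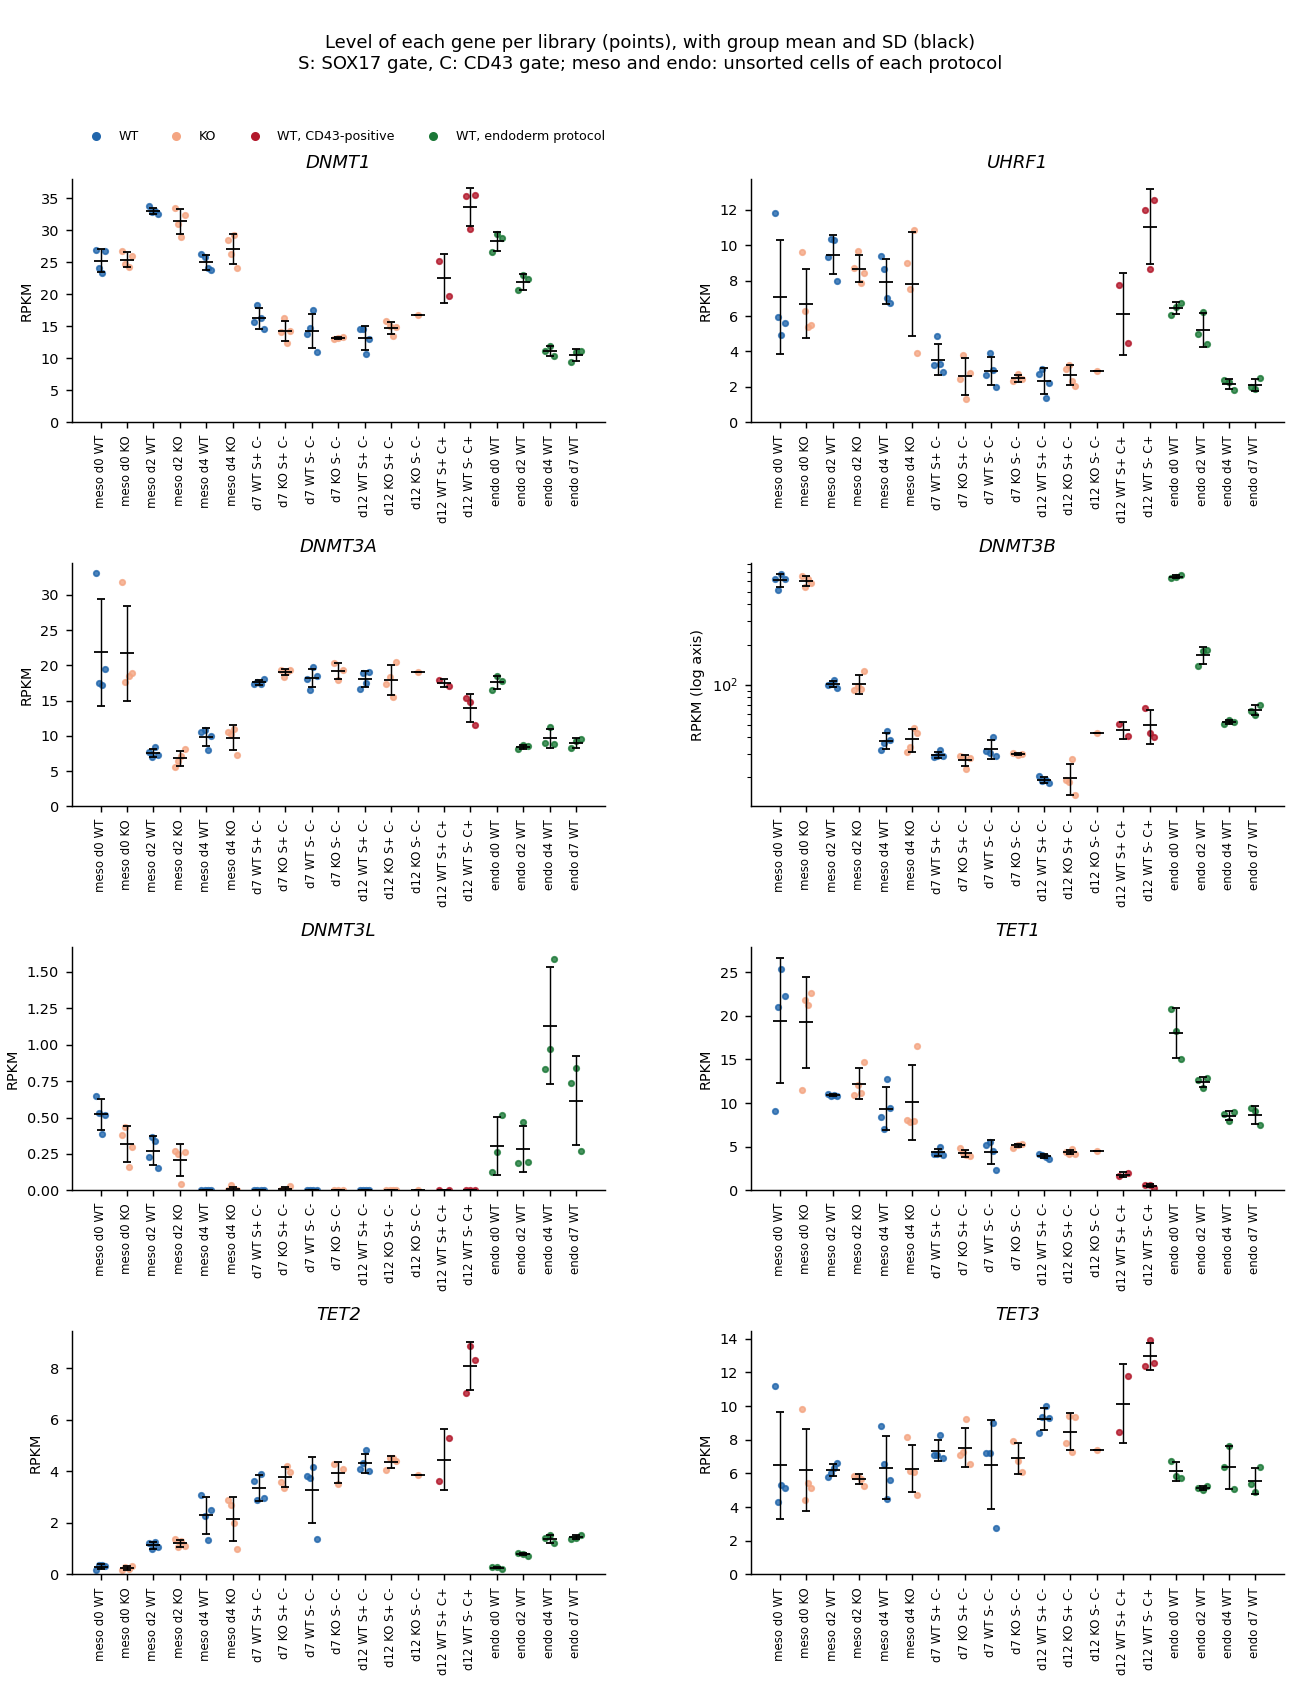
RPKM of each of the 8 genes (vertical axis, linear from 0 except for DNMT3B, which is on a log axis) in every library (points) of the 19 groups (horizontal axis), with the group mean and SD in black. DNMT3B and TET1 are highest at day 0 of both protocols, TET2 is highest in SOX17-negative CD43-positive cells of day 12, and DNMT3L is near 0 in mesoderm from day 4 on.

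DNMT3A, the other de novo enzyme, fell early and then rose again in the sorted mesoderm fractions. The WT libraries held 33.1, 17.5, 17.2 and 19.5 RPKM at day 0, 7.69, 7.02, 8.40 and 7.27 at day 2 and 10.5, 10.8, 8.02 and 9.95 at day 4. Day 2 lay below day 0 without overlap, and number 1 of day 0 stood far above the rest. The log2 change was -1.52 ± 0.21 from day 0 to day 2 (adjusted p = 3.64e-06) and 0.37 ± 0.21 to day 4 (adjusted p = 0.142), which passed when only the compared groups were fitted (adjusted p = 0.0102). In WT SOX17-positive CD43-negative cells of day 7 the libraries held 17.4, 17.7, 17.3 and 18 RPKM, above all day 4 libraries. That change was 0.86 ± 0.10 (adjusted p = 3.67e-05). Endoderm showed the first fall, -1.05 ± 0.11 (adjusted p = 1.66e-06), and stayed between 8.15 and 11.2 RPKM in all 9 libraries of day 2, 4 and 7. At day 7 endoderm held 0.95 ± 0.09 less on the log2 scale than SOX17-positive endothelium (adjusted p = 1.15e-06). Sorting, protocol, cell type and the series of library numbers differ together in this last comparison and cannot be told apart. The numbers were 32008 to 32010 in endoderm and 68685 to 68715 in the sorted cells.

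The balance between the 2 de novo enzymes changed as well. RPKM is scaled per gene length, so the 2 were set beside each other within a library, but the ratio depends on the lengths used. All exons together span 12020 bases for DNMT3A and 4630 for DNMT3B, and the lengths of the transcripts present were not tested. DNMT3B exceeded DNMT3A by 29.8 ± 8.58 times (SD, n = 4) in WT mesoderm of day 0, 13.3 ± 0.758 times at day 2 and 3.96 ± 1.12 times at day 4. In WT SOX17-positive CD43-negative cells the ratio was 1.68 ± 0.118 at day 7 and 1.07 ± 0.121 at day 12, so the 2 transcripts were at about equal levels there. Endoderm of day 7 kept a ratio of 7.14 ± 0.672 (n = 3). In SOX17-negative CD43-positive cells of day 12 the ratio was 3.56 ± 0.677 (n = 3), with single libraries at 2.94 to 4.28 against 0.944 to 1.22 in SOX17-positive CD43-negative cells.

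**Figure D2:**
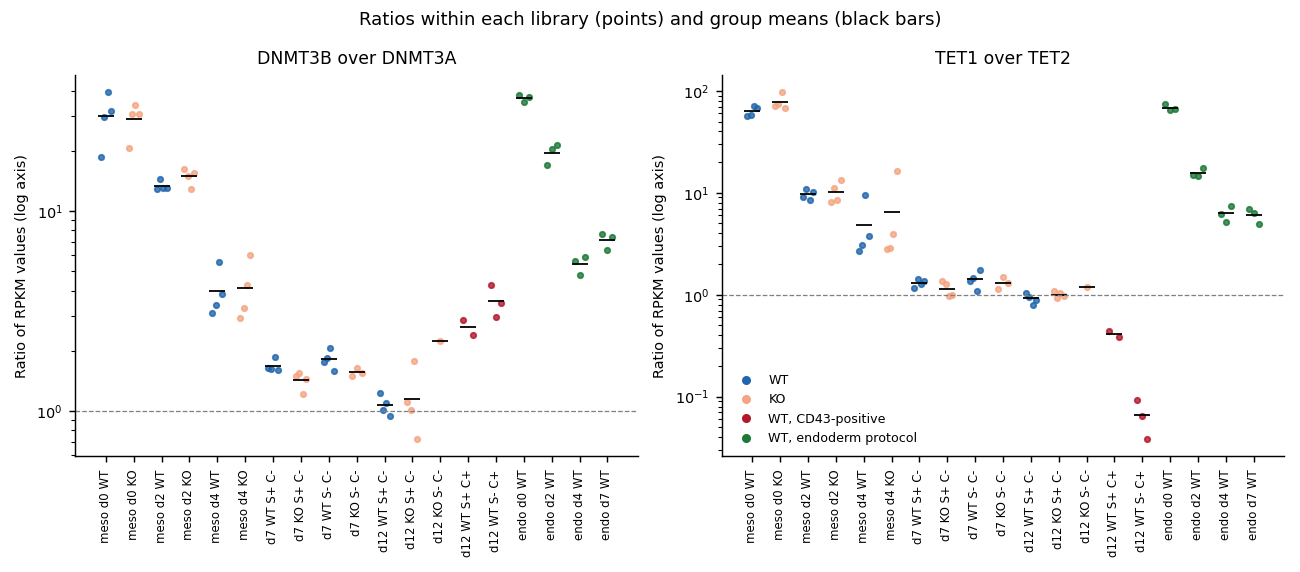
Ratio of RPKM values within each library (points, log axis) of DNMT3B to DNMT3A (left) and of TET1 to TET2 (right), with group means as black bars and a dashed line at equal levels. The TET1 to TET2 ratio falls from 57.3 to 71.7 in the 4 WT mesoderm libraries of day 0 to at most 0.0933 in the SOX17-negative CD43-positive cells of day 12.

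DNMT3L had the fewest counts of the 8, and its course separated the protocols. Summed over the libraries of a group it had 55 counts in WT mesoderm of day 0, 24 at day 2 and 0 of 64635360 counts at day 4. In KO mesoderm it had 33, 23 and 1 counts at the same days. The fall from day 2 to day 4 passed the test in both genotypes (adjusted p = 2.23e-05 in WT and 0.000246 in KO). Single libraries of day 2 held only 3 to 8 counts in WT and 1 to 8 in KO, so the gene entered these tests through other libraries of the fit. Fitted with only the compared groups it did not pass the filter on low counts and was not tested in either genotype. In WT the level at day 2 was 10.7-fold that at day 4 if a floor of 3 counts over the group is put in place of 0. In KO it was 25.4-fold that at day 4 (95% counting interval 4.13 to 1048). In endoderm the counts were 25, 27, 95 and 56 at day 0, 2, 4 and 7. The rise from day 2 to day 4 was 1.99 ± 0.50 (adjusted p = 0.00537), with the counts 3.70-fold higher (2.39 to 5.90). Single endoderm libraries held 4 to 13, 6 to 15, 23 to 46 and 7 to 26 counts at these 4 days. Only at day 4 were all above the minimum count of 10. The gene thus passed the filter on low counts mostly through the group called higher, a limit of this p-value. At day 4 endoderm held 43.2-fold the level of WT mesoderm with the same floor, and the difference in change between protocols passed (adjusted p = 1.56e-06). Among the 29 sorted libraries 1 count was found in all, in KO SOX17-positive cells of day 7, and DNMT3L was not tested there. An antisense gene, AP001059.1, shares 241 exon bases with DNMT3L, and reads of the pair cannot be told apart without strand, and the labels do not state if counting used it. Intervals cover counting error only, and the folds with a floor leave out the counting error of the higher group. The upper 95% limit for the 0 counts of WT mesoderm at day 4 is 3.69 counts.

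**Figure D3:**
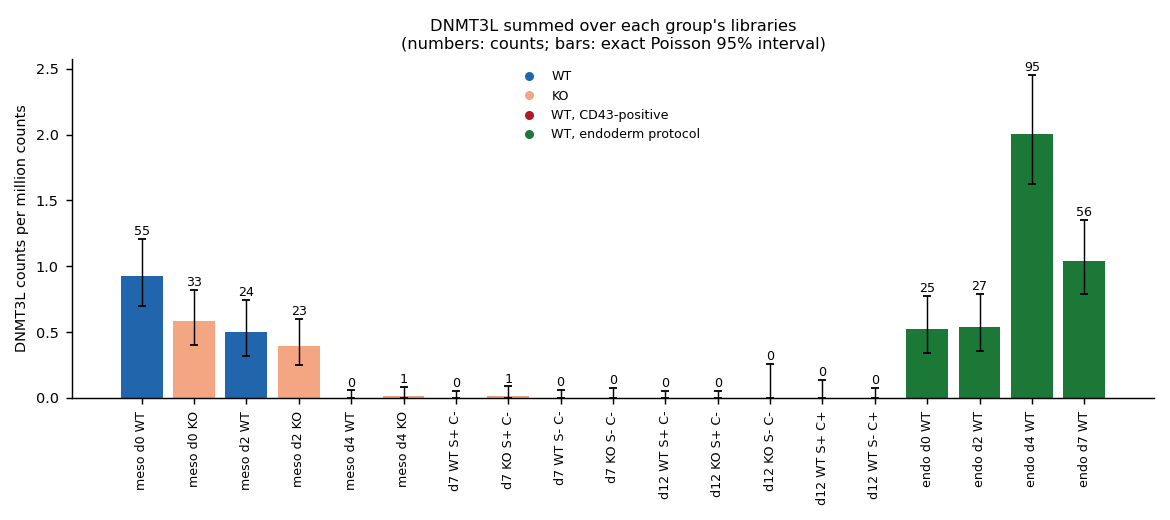
DNMT3L counts scaled to the total count (CPM, vertical axis), summed over the libraries of each group (horizontal axis), with the number of counts above each bar and exact Poisson 95% intervals. The highest bar is endoderm of day 4 with 95 counts, and mesoderm from day 4 on has at most 1 count per group.

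DNMT1, which copies methylation after replication, rose to day 2 of mesoderm and fell to day 2 of endoderm, and fell from day 2 to day 4 in both. The WT mesoderm libraries held 26.9, 24, 23.4 and 26.7 RPKM at day 0, 33.7, 32.9, 33 and 32.5 at day 2 and 26.3, 25.7, 24.2 and 23.8 at day 4. Day 2 lay above both other days without overlap. The log2 change was 0.40 ± 0.08 to day 2 (adjusted p = 0.000187) and -0.40 ± 0.08 to day 4 (adjusted p = 0.000138). Endoderm libraries held 26.6, 29.4 and 28.7 RPKM at day 0 and 20.6, 23 and 22.3 RPKM at day 2. They then held 11.2, 11.9 and 10.3 RPKM (day 4) and 9.46, 11 and 11.1 RPKM (day 7). Levels fell to day 4 with no overlap between days, by 0.36 ± 0.09 (adjusted p = 0.00445) and 0.97 ± 0.09 (adjusted p = 2.13e-06) on the log2 scale. The change since day 0 was lower in endoderm than in mesoderm by 0.74 ± 0.11 at day 2 (adjusted p = 7.24e-05) and by 1.33 ± 0.11 at day 4 (adjusted p = 1.42e-08). DNMT1 shares 83 of its 9796 exon bases with S1PR2 on the same strand.

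UHRF1, which brings DNMT1 to replicated DNA, was lower than DNMT1 in every group but followed the same order of groups closely. WT mesoderm held 11.8, 5.93, 4.90 and 5.61 RPKM at day 0, 9.31, 10.3, 10.3 and 7.96 at day 2 and 9.40, 8.65, 7.03 and 6.71 at day 4. Number 1 of day 0 was above all libraries of the later days and the other 3 were below them. The change to day 2 was 0.43 ± 0.27 (adjusted p = 0.206). It became 0.81 without day 0 number 1 and passed (adjusted p = 0.00908), as did the lower change in endoderm at day 2 (-1.12, adjusted p = 0.000373, against -0.71 and 0.101 with it). Endoderm held 6.07, 6.51 and 6.73 RPKM at day 0 and 4.99, 6.24 and 4.39 at day 2. It held 2.36, 2.28 and 1.84 RPKM at day 4 and 1.99, 1.86 and 2.51 at day 7. Day 4 lay below day 2 without overlap, a log2 change of -1.26 ± 0.16 (adjusted p = 2.14e-05). The change since day 0 was 1.74 ± 0.33 lower than in mesoderm by day 4 (adjusted p = 0.000245). The level of UHRF1 carries an uncertainty of assignment. AC112777.1, a processed pseudogene on chromosome 12, matched a UHRF1 transcript over all of its 1423 bases with 99.4% identity, and its counts came to 44.4 to 72.2% of those of UHRF1 in the same library. Reads cannot be split between the 2 with certainty.

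Genes of DNA replication moved with this pair. The summed level of 12 replication genes, among them MCM2 to MCM7 of the replicative helicase, was 597 to 721 RPKM in WT mesoderm of day 0, 555 to 645 at day 2 and 442 to 546 at day 4. It was 658 to 688 in endoderm of day 0 and 214 to 274 at day 4. In WT CD43-negative SOX17-positive cells it was 201 to 293 at day 7 and 135.0 to 200.1 at day 12, and in SOX17-negative CD43-positive cells of day 12 it was 574 to 741. Across the 18 group means, each taken as log2, Pearson's r with the replication sum was 0.897 for DNMT1 and 0.912 for UHRF1. Spearman's rho was 0.831 and 0.787. These groups share libraries of 1 line and are no independent sample, so the values are a description. Endoderm points lay low for their replication level: endoderm of day 7 held 272 to 321 RPKM of replication genes, against 201 to 293 in WT SOX17-positive cells of day 7, with DNMT1 at 9.46 to 11.1 against 14.6 to 18.4. DNMT1 was at 10.9 to 17.5 in WT SOX17-negative cells of day 7, whose number 4 lay within the endoderm range. At day 2 of mesoderm the replication sum overlapped that of day 0 while DNMT1 did not. What part the replicating share of cells had in the DNMT1 and UHRF1 values was not tested.

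**Figure D4:**
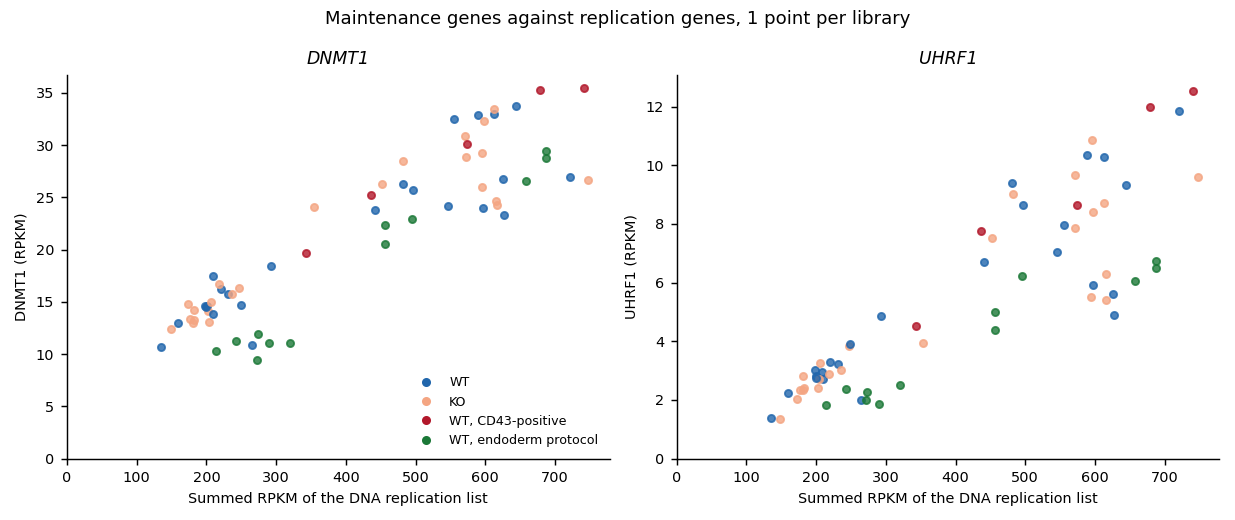
DNMT1 (left) and UHRF1 (right) in RPKM against the summed RPKM of 12 replication genes, with 1 point for each of the 65 libraries. Low levels of all 3 are found in CD43-negative sorted cells and late endoderm, and SOX17-negative CD43-positive cells lie at the upper end with DNMT1 at 30.1 to 35.5.

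TET1, the oxidase of pluripotent cells, fell in both protocols. WT mesoderm held 9.05, 21, 25.3 and 22.3 RPKM at day 0, 11, 10.8, 10.9 and 10.8 at day 2 and 8.37, 6.99, 12.7 and 9.45 at day 4. Number 1 of day 0 lay among the later libraries, and the other 3 lay above them. The change to day 2 was -0.82 ± 0.27 (adjusted p = 0.0179), which was lost without WT number 3 of day 0 (adjusted p = 0.0676), and -0.21 ± 0.27 to day 4 (adjusted p = 0.540). Endoderm fell by 0.53 ± 0.12 to day 2 (adjusted p = 0.00155) and by 0.53 ± 0.12 to day 4 (adjusted p = 0.00257), from 20.7, 18.3 and 15.1 RPKM at day 0 to 8.72, 7.98 and 9.01 at day 4. In WT SOX17-positive CD43-negative cells of day 7 the libraries held 4.23, 4.19, 4.98 and 4.07 RPKM, below all of day 4, a change of -1.09 ± 0.17 (adjusted p = 0.000349). Endoderm of day 7 held 1.00 ± 0.11 more on the log2 scale than these cells (adjusted p = 6.54e-06).

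TET2, another of the oxidases, ran the other way. It was at 0.158, 0.366, 0.353 and 0.329 RPKM in WT mesoderm of day 0, at 1.21, 0.995, 1.28 and 1.06 at day 2 and at 3.09, 2.26, 1.33 and 2.49 at day 4. The 3 days did not overlap. The rise was 1.93 ± 0.31 (adjusted p = 2.09e-05) and then 1.01 ± 0.29 (adjusted p = 0.00549). Endoderm rose by 1.59 ± 0.14 to day 2 (adjusted p = 4.02e-07) and 0.81 ± 0.13 to day 4 (adjusted p = 0.000148), from 0.280, 0.284 and 0.229 RPKM at day 0 to 1.41, 1.53 and 1.21 at day 4. It then held at 1.36, 1.43 and 1.53 RPKM at day 7. TET2 in WT SOX17-positive CD43-negative cells of day 7, at 3.64, 2.91, 3.92 and 2.97 RPKM, was above day 4 by 0.57 ± 0.21 (adjusted p = 0.0380), a call that ended when any of day 4 numbers 2 and 4 or day 7 numbers 1, 3 and 4 was left out (adjusted p = 0.0504 to 0.107) and with limma-trend on the authors' log2 values (0.0518). Endoderm of day 7 lay 1.21 ± 0.13 below these cells (adjusted p = 4.12e-06). TET3 was the steadiest of the 3: group means ran from 5.14 to 13 RPKM, and no step to day 7 in either protocol passed. Its rise from day 2 to day 4 of endoderm (0.32 ± 0.14, adjusted p = 0.0760) passed without endoderm number 3 of day 4 (adjusted p = 0.0109), and that from day 4 to SOX17-positive cells of day 7 (0.23 ± 0.17, adjusted p = 0.261) without WT number 1 of day 4 (adjusted p = 0.0249). Endoderm number 3 of day 4 is library 68684, numbered next to the sorted libraries, while the other endoderm libraries lie between 31999 and 32010.

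The make-up of the TET transcripts changed accordingly. TET1 gave 72.0% ± 18.5 (SD, n = 4) of the summed TET RPKM in WT mesoderm of day 0, 59.8% ± 1.24 at day 2 and 52.1% ± 12.4 at day 4. In WT SOX17-positive CD43-negative cells it gave 29% ± 0.55 at day 7 and 22.6% ± 2.09 at day 12, and in SOX17-negative CD43-positive cells 2.42% ± 0.887 (n = 3). TET2 gave 1.13% ± 0.269, 6.24% ± 0.675, 12.7% ± 3.73, 22.2% ± 1.67, 24.6% ± 0.896 and 37.4% ± 2.12 in the same 6 groups. TET3 gave the rest, 26.8% ± 18.7, 34% ± 1.52, 35.2% ± 8.97, 48.8% ± 1.13, 52.8% ± 1.93 and 60.1% ± 1.3. The wide spread at day 0 is that of library number 1, where TET1 gave 44.3%. The shares depend on the gene lengths used, with all exons spanning 9288 bases for TET1, 16474 for TET2 and 12271 for TET3.

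**Figure D5:**
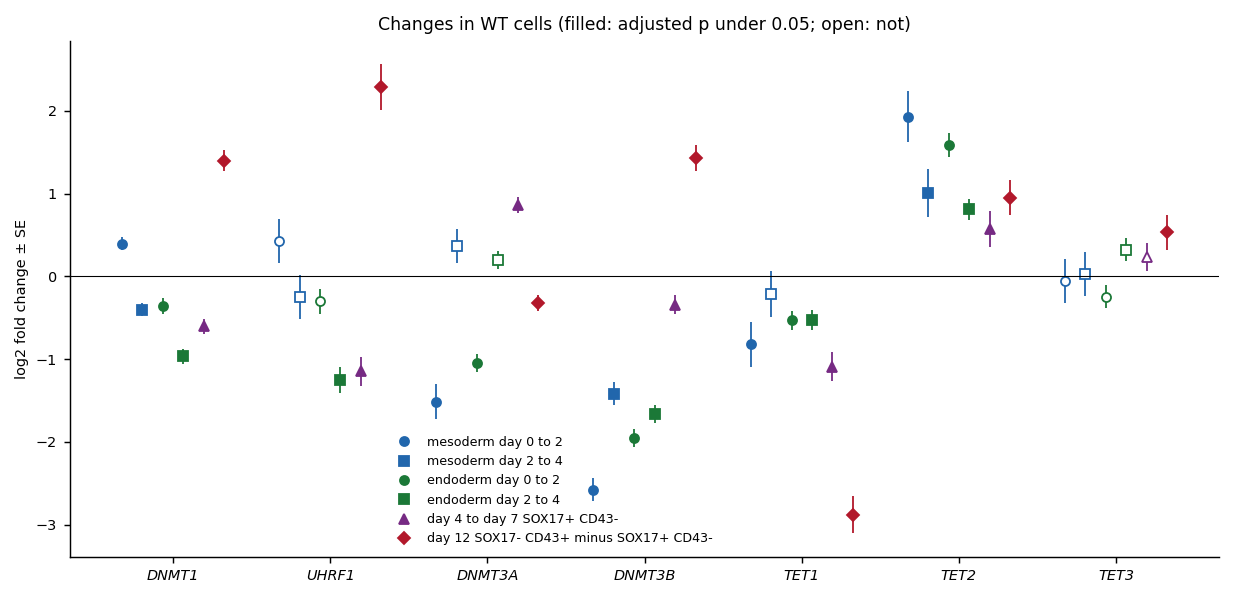
Log2 fold change ± SE (vertical axis) of 7 genes (horizontal axis) in 6 comparisons of WT cells. Filled symbols passed an adjusted p of 0.05, and DNMT3L is left out because groups without a count have no fitted fold change that can be read. TET2 lies above 0 in all 6 comparisons, while DNMT1, UHRF1 and DNMT3B are lower in sorted cells of day 7 and higher in CD43-positive cells of day 12.

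From unsorted WT cells of day 4 to SOX17-positive CD43-negative cells of day 7, 6 of the 7 tested genes passed (62.8% of all genes), 2 higher and 4 lower. Sorting, time and the series of library numbers (31266 to 31320 at day 4, 68685 to 68715 at day 7) differ together here and cannot be told apart. Besides the genes above, DNMT1 fell by 0.61 ± 0.09 (adjusted p = 0.000264) to 15.7, 18.4, 16.2 and 14.6 RPKM and UHRF1 by 1.15 ± 0.18 (adjusted p = 0.000265) to 3.21, 4.85, 3.29 and 2.83 RPKM. DNMT3B fell by 0.34 ± 0.11 (adjusted p = 0.0234) to 28.3, 28.8, 32.1 and 28.9 RPKM, all below the 4 libraries of day 4. That call ended without day 7 number 1, 2 or 4 (adjusted p = 0.0515 to 0.0687). Against SOX17-positive endothelium, endoderm of day 7 differed in 7 of 7 tested genes (71.6% of all genes). DNMT3B and TET1 were higher in endoderm, DNMT3B by 1.13 ± 0.10 (adjusted p = 3.93e-07), and the other 5 lower, TET3 by the smallest amount (-0.39 ± 0.11, adjusted p = 0.00775).

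Within the CD43-negative endothelial cells of day 7 the SOX17 gate made no difference that passed. None of 7 genes passed between SOX17-positive and SOX17-negative cells in WT (1.6% of all genes) or KO (0.67%) with edgeR or DESeq2, and 0 had an unadjusted p under 0.05. In WT the approximate 95% interval of the log2 difference was -0.23 to 0.13 for DNMT3A, -0.45 to 0.14 for DNMT3B and -0.21 to 0.80 for UHRF1, so a difference of 2-fold lay outside all 3. Number 4 of the WT SOX17-negative cells was low in TET1 (2.39 RPKM), TET2 (1.36) and TET3 (2.75), against 4.55 to 5.53, 3.76 to 4.17 and 7.18 to 8.97 in the other 3.

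From day 7 to day 12 in SOX17-positive CD43-negative cells 1 of 7 genes passed, DNMT3B, in WT (17.8% of all genes) and in KO (13.3%). WT libraries of day 12 held 20.4, 18.9, 19.1 and 18 RPKM, below all 4 of day 7, a change of -0.62 ± 0.15 (adjusted p = 0.00439). KO libraries held 29, 28.3, 23.2 and 27.9 RPKM at day 7 and 19.2, 18.5, 27.3 and 14.8 at day 12. KO number 3 of day 12 lay within the day 7 range, and the change of -0.45 ± 0.15 (adjusted p = 0.0454) was lost without any of numbers 1, 2 and 4 of either day (adjusted p = 0.0933 to 0.219). With the compared groups fitted alone it was also lost (adjusted p = 0.0759). WT then had 2 more calls, TET2 at 0.36 (adjusted p = 0.0311) and TET3 at 0.34 (adjusted p = 0.0136). UHRF1 in WT changed by -0.60 and did not pass in the main fit. It passed without the filter on low counts (adjusted p = 0.0497) and with a block for runs of library numbers (-0.62, adjusted p = 0.0190).

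The CD43-positive cells of day 12 were compared with endothelium next, and the SOX17-negative ones among them are called blood below. In SOX17-negative CD43-positive against SOX17-positive CD43-negative WT cells all 7 tested genes passed, 5 higher and 2 lower, where 66.2% of all genes passed. TET1 fell furthest, from 4.23, 4.10, 3.86 and 3.60 RPKM to 0.659, 0.578 and 0.319, with no overlap and a log2 difference of -2.88 ± 0.22 (adjusted p = 9.31e-12), 7.37-fold. TET2 was at 7.06, 8.87 and 8.32 RPKM against 4.08, 4.32, 4.84 and 4.02, again without overlap, by 0.95 ± 0.21 (adjusted p = 0.000332). TET3 was at 12.4, 13.9 and 12.6 RPKM against 8.41 to 9.99, by 0.53 ± 0.21 (adjusted p = 0.0318). That last call ended without CD43-positive number 2 or 3, or without SOX17-positive CD43-negative number 1, 2 or 4 (adjusted p = 0.0519 to 0.0888). It also ended with limma-trend (0.0607) and with a block for replicate number (0.0549).

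Both maintenance genes were higher in blood. DNMT1 was at 35.3, 30.1 and 35.5 RPKM against 14.5, 14.6, 10.7 and 12.9, a difference of 1.40 ± 0.13 (adjusted p = 3.55e-10). UHRF1 was at 12, 8.64 and 12.5 RPKM against 2.75, 3.01, 1.38 and 2.23, by 2.29 ± 0.28 (adjusted p = 4.20e-08). Neither pair of groups overlapped. All 12 replication genes and all 8 mitosis genes measured were also higher in the blood cells, in a comparison where 66.2% of all genes passed in either direction. DNMT3B was at 66, 43.5 and 40.2 RPKM against 18 to 20.4, by 1.43 ± 0.16 (adjusted p = 1.37e-08). DNMT3A was the exception among the methyltransferases, at 15.4, 14.8 and 11.6 RPKM against 16.7, 18.9, 17.4 and 19.1, a difference of -0.32 ± 0.10 (adjusted p = 0.00527) that was lost without CD43-positive number 3 (adjusted p = 0.0616). Against the SOX17-negative CD43-negative cells of day 7 the 7 genes passed in the same directions (62.9% of all genes), TET1 by -3.04 ± 0.22 (adjusted p = 3.75e-12). The call of DNMT3A there was lost with only the compared groups (adjusted p = 0.0849) or without CD43-positive number 3 (0.0680).

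SOX17-positive CD43-positive cells, with 2 libraries, lay between endothelium and SOX17-negative blood cells for several of the genes. Against SOX17-positive CD43-negative cells 4 of 7 genes passed (26.5% of all genes). DNMT3B was at 50.6 and 41 RPKM, higher by 1.32 ± 0.18 (adjusted p = 2.75e-06), and DNMT1 at 25.2 and 19.7 RPKM, higher by 0.82 ± 0.14 (adjusted p = 0.000108). TET1 was at 1.61 and 2.03 RPKM, lower by 1.06 ± 0.23 (adjusted p = 0.00105). UHRF1, at 7.77 and 4.51 RPKM, was higher by 1.45 ± 0.30 (adjusted p = 0.000727), a call lost without CD43-positive number 1 (adjusted p = 0.0754), where the lone remaining library is assumed to vary like the others. TET2, at 3.61 and 5.30 RPKM, did not pass (0.11 ± 0.25, adjusted p = 0.795). Endothelial markers stood at 1143 and 1191 RPKM in these 2 libraries and haematopoietic markers at 154 and 187, against 54.2 to 138.9 and 252 to 295 in SOX17-negative CD43-positive cells, and their part in the values was not tested.

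Between the CD43-positive fractions 5 of 7 genes passed (37.5% of all genes). TET1 was lower in SOX17-negative cells by 1.82 ± 0.25 (adjusted p = 1.28e-06), and this held in all alternatives run. DNMT1 (0.58 ± 0.16, adjusted p = 0.00540), TET2 (0.85 ± 0.26, adjusted p = 0.0133), UHRF1 (0.84 ± 0.33, adjusted p = 0.0451) and DNMT3A (-0.34 ± 0.12, adjusted p = 0.0237) also passed. Each of these 4 calls was lost without 1 library: that of DNMT1 without SOX17-positive number 2 (adjusted p = 0.121), of TET2 without SOX17-positive number 1 (0.209), of UHRF1 without number 2 of the SOX17-positive or number 1 or 3 of the SOX17-negative libraries (0.0931 to 0.363), and of DNMT3A without number 1 or 2 of the SOX17-positive or number 3 of the SOX17-negative libraries (0.0791 to 0.196).

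None of the 8 genes differed between libraries titled KO, the line edited to lack the DNA-binding domain of RUNX1, and WT by a margin that passed. For the 8 KO libraries of day 2 and 4 the genotype field lacks the deletion. RUNX1 did not separate KO from WT at day 0, 2 or 4 either, so those days show what the titles separate. At day 0, 2 and 4 edgeR called 0 of 8 (0% of all genes each day), none had an unadjusted p under 0.05, and DESeq2 called 0. For DNMT3B the approximate 95% intervals of the log2 difference were -0.27 to 0.25, -0.26 to 0.26 and -0.22 to 0.31 at the 3 days. For TET2 the intervals were -0.86 to 0.38, -0.47 to 0.65 and -0.62 to 0.47. In sorted cells 0 of 7 passed in SOX17-positive cells of day 7 (0.0566% of all genes), in SOX17-negative cells of day 7 (0.0087%) and in SOX17-positive CD43-negative cells of day 12 (0.187%), with 0 at an unadjusted p under 0.05 and 0 by DESeq2. There the largest difference was that of UHRF1 in SOX17-positive cells of day 7, with 2.42, 3.82, 1.33 and 2.80 RPKM in KO against 3.21, 4.85, 3.29 and 2.83 in WT (log2 -0.43, interval -0.94 to 0.08). The KO effect differed between day 7 and day 12 for 0 of 7 (0.00435% of all genes), and the SOX17 difference between genotypes for 0 of 7 (0%), again with 0 at an unadjusted p under 0.05 and 0 by DESeq2.

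KO mesoderm was tested step by step as well, in the same fit as WT. From day 0 to day 2, 4 of 8 passed (43.3% of all genes): DNMT3B at -2.57 ± 0.14, DNMT3A at -1.67 ± 0.21, TET2 at 2.26 ± 0.31 and DNMT1 at 0.30 ± 0.08 (adjusted p = 3.22e-12, 9.91e-07, 3.27e-06 and 0.00252). TET1 changed by -0.66 ± 0.27 (adjusted p = 0.0559), and passed without KO number 1 of day 0 (-0.82, adjusted p = 0.0179). With no library of these groups left out, it passed with DESeq2 (0.0394), the replicate block (0.0309) and only the compared groups (0.0163). It did not pass with other size factors, no filter or limma-trend. UHRF1 changed by 0.36 (adjusted p = 0.289), and passed without number 1 of day 0 in both genotypes (0.61, adjusted p = 0.0265). From day 2 to day 4, 5 of 8 passed (50.5%), of which DNMT3B (-1.37 ± 0.14, adjusted p = 3.35e-08) kept its call in all alternatives run and DNMT3L in all in which it was tested. Fitted with only the compared groups, DNMT3L did not pass the filter on low counts and was not tested. TET2 (0.84 ± 0.28, adjusted p = 0.0169) lost it without KO number 1 or 2 of day 4 (0.0585 to 0.0707). DNMT1 (-0.20 ± 0.08, adjusted p = 0.0344) lost it without number 1, 2 or 4 of day 2 or number 2 or 4 of day 4 (0.0571 to 0.117), and with only the compared groups (0.132). When the libraries of day 4 that stood apart (number 3 of WT, number 4 of KO) were left out together, the call of DNMT1 was also lost (0.126), while TET1 passed (-0.60, adjusted p = 0.0457, from -0.26 and 0.440). DNMT3A (0.53 ± 0.21, adjusted p = 0.0353) lost it without number 1 or 2 of day 2 or number 1, 2 or 3 of day 4 (0.0699 to 0.1005). In the 1 library of KO cells sorted as SOX17-negative CD43-negative at day 12 there were 42.8 RPKM of DNMT3B, 4.57 of TET1 and 3.85 of TET2, with no replicate.

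Across the 18 replicated groups the span between the highest and lowest group mean was 33.8-fold for DNMT3B, 37.5-fold for TET1 and 32-fold for TET2, but 5.21-fold for UHRF1, 3.2-fold for DNMT3A, 3.19-fold for DNMT1 and 2.52-fold for TET3. In the order of DNMT3B levels, the 3 day 0 groups (599 to 647 RPKM) were followed by endoderm of day 2 (166), mesoderm of day 2 (101 in both genotypes), endoderm of day 7 (64.2) and endoderm of day 4 (52). Ranges were separate between day 0 and endoderm of day 2, between that and mesoderm of day 2, between mesoderm of day 2 and endoderm of day 7, and between endoderm of day 7 and day 4. All lower neighbours overlapped, down to WT SOX17-positive CD43-negative cells of day 12 (19.1). In the order of TET1, day 0 (18 to 19.4), the unsorted later groups (8.57 to 12.4), CD43-negative sorted cells (3.95 to 5.15), SOX17-positive CD43-positive cells (1.82) and SOX17-negative CD43-positive cells (0.519) formed 5 tiers. Ranges of the neighbouring groups at each border were separate, but across the first border mesoderm day 0 number 1 of both genotypes (9.05 and 11.5) lay within the second tier and KO number 4 of day 4 (16.5) within the first. TET2 ran from 0.252 to 0.301 RPKM at day 0, through 0.795 in endoderm of day 2 and 1.14 to 2.29 in the other unsorted groups. It reached 3.28 to 4.46 in CD43-negative sorted cells and SOX17-positive CD43-positive cells, and 8.08 in SOX17-negative CD43-positive cells. Its ranges were separate above day 0, above endoderm of day 2 and below the last group. DNMT3A had only 2 separate borders, DNMT1 2 and UHRF1 0 among 17 neighbouring pairs.

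Genes with the most similar course were sought by Pearson's correlation of group means of log2 CPM over the 18 groups, among 17449 genes. The nearest to DNMT1 were UHRF1 (r = 0.985), AC112777.1 (0.983) and the helicase subunit gene MCM2 (0.972), and the nearest to UHRF1 were AC112777.1 (0.996), DNMT1 and the helicase gene BLM (0.981). The nearest to DNMT3B was CSPG5 (0.982), to TET1 RBPMS2 (0.979), to TET2 AGO3 (0.981), to DNMT3A MEF2B (0.945), to TET3 TMEM156 (0.960) and to DNMT3L CLN8 (0.980). Between 0.0802% of candidates, for DNMT3A, and 1.82%, for DNMT3L, had r over 0.9. Among the 8 themselves DNMT3B and TET2 ran most opposite (r = -0.930), followed by TET1 with TET3 (-0.894) and TET1 with TET2 (-0.855). All points share the same libraries, and no test was made.

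Genes that act with the 8 were followed as 4 lists. Among 8 partners of maintenance methylation all 8 were higher in SOX17-negative CD43-positive cells than in SOX17-positive CD43-negative cells of day 12, with a median log2 difference of 1.68 against -0.02 over all genes, of which 66.2% passed. PCLAF, a PCNA-associated factor, was higher by 3.44 ± 0.29 (adjusted p = 5.74e-11), CDCA7L by 2.36 ± 0.18 (adjusted p = 4.43e-12) and PCNA, the replication clamp, by 2.21 ± 0.20 (adjusted p = 2.07e-10). In endoderm between day 2 and day 4, 5 of the 8 fell and none rose (median -0.61, all genes 0.01, 42.4% of all genes passed), with CDCA7L at -1.99 ± 0.20 (adjusted p = 2.34e-06) and PCLAF at -1.42 ± 0.13 (adjusted p = 1.70e-06). At day 2 of WT mesoderm 3 rose and 3 fell (median 0.12, all genes -0.00, 45.1% of all genes passed): UHRF2, the paralog of UHRF1, rose by 1.07 ± 0.14 (adjusted p = 1.78e-06), while HELLS, a chromatin remodeller needed for methylation, fell by 0.96 ± 0.13 (adjusted p = 3.99e-06) and CDCA7L by 2.65 ± 0.50 (adjusted p = 0.000158).

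Among 8 readers of methylated DNA, 4 rose and 1 fell at day 2 of WT mesoderm (median 0.39, all genes -0.00, where 45.1% passed), led by MBD1 at 0.82 ± 0.10 (adjusted p = 1.10e-06). In endoderm 4 rose and none fell by day 2 (median 0.27, all genes 0.02, where 55.5% passed), and 3 rose and none fell to day 4 (median 0.31, all genes 0.01, where 42.4% passed). In the blood comparison 3 were higher and 4 lower (median -0.19, all genes -0.02, where 66.2% passed), with ZBTB4 at -1.37 ± 0.12 (adjusted p = 5.59e-11) and MBD4, a glycosylase with a methyl-binding domain, at 0.70 ± 0.11 (adjusted p = 2.27e-06).

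Of the 10 genes of excision and repair after TET oxidation, TDG, the glycosylase that removes oxidised methylcytosine, fell by 0.48 ± 0.17 from day 2 to day 4 of WT mesoderm (adjusted p = 0.0207), when 1 of the 10 rose and 2 fell (median -0.06, all genes -0.01, where 51.4% passed). NEIL1, another glycosylase, was 1.93 ± 0.11 higher in SOX17-positive cells of day 7 than at day 4 (adjusted p = 4.49e-07), against 2 higher and 8 lower in the list (median -0.44, all genes -0.02, where 62.8% passed). POLB, the repair polymerase, rose by 1.92 ± 0.12 to day 2 of endoderm (adjusted p = 1.20e-08) and fell by 1.34 ± 0.12 to day 4 (adjusted p = 7.51e-07). In that protocol 5 of 10 rose and 2 fell to day 2 (median 0.37, all genes 0.02, where 55.5% passed), and 1 rose and 5 fell to day 4 (median -0.23, all genes 0.01, where 42.4% passed).

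The last list held regulators and cofactor enzymes. At day 2, 3 of 13 rose and 6 fell in WT mesoderm (median -0.33, all genes -0.00, where 45.1% passed), and 2 rose and 8 fell in endoderm (median -0.57, all genes 0.02, where 55.5% passed). DPPA3, which keeps UHRF1 from chromatin in the early embryo, fell by 5.94 ± 0.79 in mesoderm (adjusted p = 4.58e-06) and fell by 5.44 ± 0.67 in endoderm (adjusted p = 1.11e-05). ZFP57, which guards imprinted methylation, fell by 5.24 ± 0.61 (adjusted p = 3.41e-07) and fell by 6.72 ± 0.78 (adjusted p = 6.41e-06). CXXC4, a binding partner of TET2, fell by 2.82 ± 0.44 to day 2 of mesoderm (adjusted p = 1.96e-05) and rose by 4.00 ± 0.43 to day 4 (adjusted p = 1.27e-07), and in endoderm it fell by 2.67 ± 0.49 (adjusted p = 0.000336) and rose by 3.81 ± 0.45 (adjusted p = 1.25e-05). In blood against endothelium CXXC4 was lower by 3.61 ± 0.36 (adjusted p = 1.20e-09), while MAT2A and AHCY, which make and recycle the methyl donor cycle, were higher by 1.35 ± 0.16 and 1.29 ± 0.13 (adjusted p = 3.99e-08 and 1.71e-09), in a list with 6 of 11 higher and 2 lower (median 0.36, all genes -0.02, where 66.2% passed). IDH2, a source of the TET cofactor 2-oxoglutarate, was 2.73 ± 0.15 lower in endoderm than in SOX17-positive endothelium of day 7 (adjusted p = 8.74e-09), a comparison in which 71.6% of all genes passed.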

How the data were processed

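RNA-seq of 65 libraries was used as deposited by the authors. Per the labels, total RNA was sequenced; per the submitters' processing notes, cutadapt 1.18, featureCounts, R 3.2.2 and GRCh38 were used. The deposited counts are raw reads per Ensembl gene. The deposited log2 values, log2(RPKM + 1) with TMM scaling by the authors, were turned back into RPKM for levels. GENCODE 29 named 58039 of 58302 identifiers.

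Tests used edgeR 4.0.16 (quasi-likelihood, TMM, filterByExpr with a minimum count of 10 and a total of 15) in R 4.3.3, with Benjamini-Hochberg adjustment over all genes and a threshold of 0.05. The 6 fits covered mesoderm, endoderm, both protocols, sorted cells, WT day 4 with day 7, and both lineages at day 7. A SE is the fold change divided by the root of F, and intervals are approximate. Alternatives used DESeq2 1.42.0, limma 3.58.1, other size factors, no filter, blocks, only the compared groups, and each library left out; 3 more left out libraries that stood apart and were chosen after seeing the data. The test code was tested on simulated data. The members and lists were chosen with earlier results of these data known. The text names the 8 members, up to 3 called genes of largest change per list, and the nearest genes by pattern.

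Replicate libraries were compared in 85 pairs, none of which agreed within sampling noise. Same-numbered libraries deviated together (every pair's correlation over 0.1) in 3 of 23 comparisons: KO against WT at day 0 (0.30 to 0.82), KO against WT in SOX17-positive cells of day 7 (0.28 to 0.53), and day 12 against day 7 in WT SOX17-positive cells (0.16 to 0.28). A block for replicate number changed no member's call there. With a block for runs of library numbers UHRF1 gained a call in the last of the 3 (-0.62, adjusted p = 0.0190).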

Additional observations from a re-analysis of the deposited data

Results flagged for a closer look

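In 83 groups of 4 libraries tested per gene, 12 held a library farther from the rest than Dixon's limit allows. Chance flags about 1 in 20 of independent groups. The genes here share the same libraries, so 12 of 83 cannot be set against that share. Mesoderm day 0 number 1 was high in WT for DNMT3A (33.1 RPKM), UHRF1 (11.8) and TET3 (11.2). In KO, number 1 of day 0 was high for DNMT3A (31.8) and low for TET1 (11.5). KO number 4 of day 4 was high for TET1 (16.5). WT SOX17-negative number 4 of day 7 was low for TET2 (1.36). WT SOX17-positive number 3 of day 7 was high for DNMT3B (32.1) and TET3 (8.30). For DNMT3L the flagged values rest on few counts: 0.0419 RPKM in KO number 3 of day 2, 0.0348 in KO number 2 of day 4 and 0.0299 in KO SOX17-positive number 4 of day 7. The last 2 are the only libraries of their groups with a count, so any value above 0 would have been flagged there.

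Changes from day 0 differed between the endoderm and mesoderm protocols for DNMT1 and DNMT3B at day 2 (adjusted p = 7.24e-05 and 0.00606), and for DNMT1, DNMT3L and UHRF1 at day 4 (adjusted p = 1.42e-08, 1.56e-06 and 0.000245).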

How the results depend on the processing

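Of 3074 values of the 8 genes under other settings, 2987 kept their direction and side of the threshold, 55 lost a call, 32 gained one and 0 reversed. With only the compared groups, the calls went from 5 to 3 in KO mesoderm from day 2 to day 4 (DNMT1 lost its call and DNMT3L was not tested), from 1 to 3 in WT SOX17-positive cells from day 7 to day 12, from 1 to 0 in KO, and from 5 to 3 between the CD43-positive fractions. The WT count for day 12 was 2 without the filter and 2 with a block for runs of library numbers, with UHRF1 gained each time. Endoderm from day 4 to day 7 went from 0 to 1 with median-of-ratios factors, without the filter, with DESeq2 and with the replicate block. The cause was not tested.

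With single libraries left out, the counts ranged from 2 to 5 in KO mesoderm to day 4, 0 to 1 in endoderm to day 7, 0 to 1 in KO to day 12 and 2 to 5 between the CD43-positive fractions. The rule for pairing by replicate number (at least 3 pairs, each with a correlation over 0.1) was not met in 20 of 23 comparisons, which does not show that the libraries were unpaired. The replicate block moved the count in 3 of these: 4 to 5 in KO mesoderm to day 2, 0 to 1 in endoderm to day 7, and 7 to 6 in SOX17-negative CD43-positive against SOX17-positive CD43-negative cells, where TET3 missed the threshold (0.46, adjusted p = 0.0549). Of 18 such comparisons with at least 3 pairs, every library correlated best with its own number in 2. Blocking also raised the protocol differences from 2 to 3 at day 2 and from 3 to 4 at day 4. At day 12, WT SOX17-negative CD43-positive numbers 1, 2 and 3 are libraries 68702, 68712 and 68722. WT SOX17-positive CD43-negative numbers 1, 2 and 3 are 68689, 68699 and 68709. The replicate block thus set libraries of different number runs together there. Other groups had the same mismatch. At day 12 WT SOX17-positive CD43-positive number 2 is 68710, and SOX17-positive CD43-negative number 2 is 68699. At day 7 KO SOX17-negative number 3 is 68718 and KO SOX17-positive number 3 is 68707. With a block for runs instead, of 91 values in sorted cells 90 stayed the same, 0 lost a call and 1 gained one. limma-trend on log2(RPKM + 1) understates changes of low genes by construction. Depth limits DNMT3L, with at most 95 counts in a group.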
